A study of Bos taurus with 16 samples.

Results

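In bovine monocyte-derived macrophages (MDMs), 55 of 12968 genes had levels that separated Holstein from Gir animals after lipopolysaccharide (LPS) but overlapped between the breeds in unstimulated cells. They were chosen on log2(CPM + 0.5), where CPM is the count of a gene scaled to a common total of counts in genes, among genes with a CPM of at least 1 in at least 4 of the 16 libraries. After LPS the ranges of the breeds had to be apart and their means at least 1.5 apart. At rest the ranges had to overlap with means less than 1 apart, and the change with LPS averaged over the 8 animals had to be smaller than 1. The choice used these same values, so breed differences, changes and their tests are given for these genes as descriptions only. Of the 55 genes, 22 were higher in Holstein and 33 were higher in Gir after LPS.

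The libraries came from 4 animals labelled Taurine and 4 labelled Indicine. The published names of these breeds, Holstein and Gir, are used here. All were young cattle whose blood mononuclear cells had been cultured for 11 days in medium with fetal bovine serum, and the adherent cells were taken as MDMs. From each animal, MDMs were left in medium or treated with 100 ng/ml LPS of Escherichia coli for 48 hours, and 1 library of each was sequenced. Animals 1, 20, 3 and 50 were Holstein and animals 2, 5, 6 and 7 were Gir by their labels, so each unstimulated library has an LPS library of the same animal.

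LPS is the outer membrane component of Gram-negative bacteria that macrophages sense through the receptor TLR4. Sensing it starts a transcriptional programme of cytokines, chemokines and antimicrobial genes, with early and late phases. MDMs are cultured from blood monocytes and are a common model of that response, although adherent cultures can also hold other cells. In libraries of bulk RNA such as these, fewer cells of a type and less RNA per cell cannot be told apart. The files name genes by Ensembl identifier only and none could be paired with a symbol, so the roles of the 55 genes are not given and the macrophage label was not checked against marker genes.

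Total counts in genes ranged from 7362247 to 10296054 per library, so a CPM of 1 corresponded to between 7.36 and 10.3 counts. Aligned reads outside genes made up between 10.4% and 14.7% of the total. No libraries were identical.

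The breeds were apart after LPS in 2093 of the 12968 genes (16.1%), and 744 of these had means at least 1.5 apart. Of the 744 genes, 271 were also apart at rest and 473 overlapped there. Most of the overlapping genes still differed by a mean of 1 or more at rest, which removed 387 of them and left 86. The limit on the mean change removed another 31 genes, 29 of them higher in Holstein, and 24 of the 31 had a mean change below 0. That last limit thus removed more genes higher in Holstein than the 22 it left. Ranges apart at rest, which the rule barred among the 55, were found in 7.86% of all genes.

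After LPS, the difference between the breed means had a median size of 1.73 over the 55 genes and reached 3.05 on the log2 scale. It lay close to the limit for many of them, with 13 genes under 1.6 and 14 genes at 2 or more. The member nearest to the limit differed by 1.504, and the nearest gene below it, which met the other limits, differed by 1.486. At rest the nearest values to the limit of 1 were 0.998 inside and 1.0004 outside. For the mean change they were 0.882 inside and 1.04 outside.

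The rest values did not show equal breeds. In 50 of the 55 genes, the breed that was higher after LPS also had the higher mean at rest, by more than 0.5 in 46 genes. The rest difference, counted toward the breed that was higher after LPS, had a median of 0.73 and ranged from -0.81 to 0.998. Over all 12968 genes its median was 0.21 and its lower quartile 0.017, so most genes kept their direction too. Among the 55, the rest difference was 0.9 or more in size for 15 genes and under 0.25 for 3 genes. Each gene allows 16 comparisons of a Holstein with a Gir animal at rest, and in the median gene 12 of the 16 ran in the direction seen after LPS. For 6 genes 15 of the 16 did. Only 5 genes had rest means in the opposite order, 1 of them higher in Holstein after LPS and 4 higher in Gir. The group is therefore described here by its rule, as genes apart after LPS and overlapping at rest, and not as genes without a breed difference at rest.

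**Figure D1:**
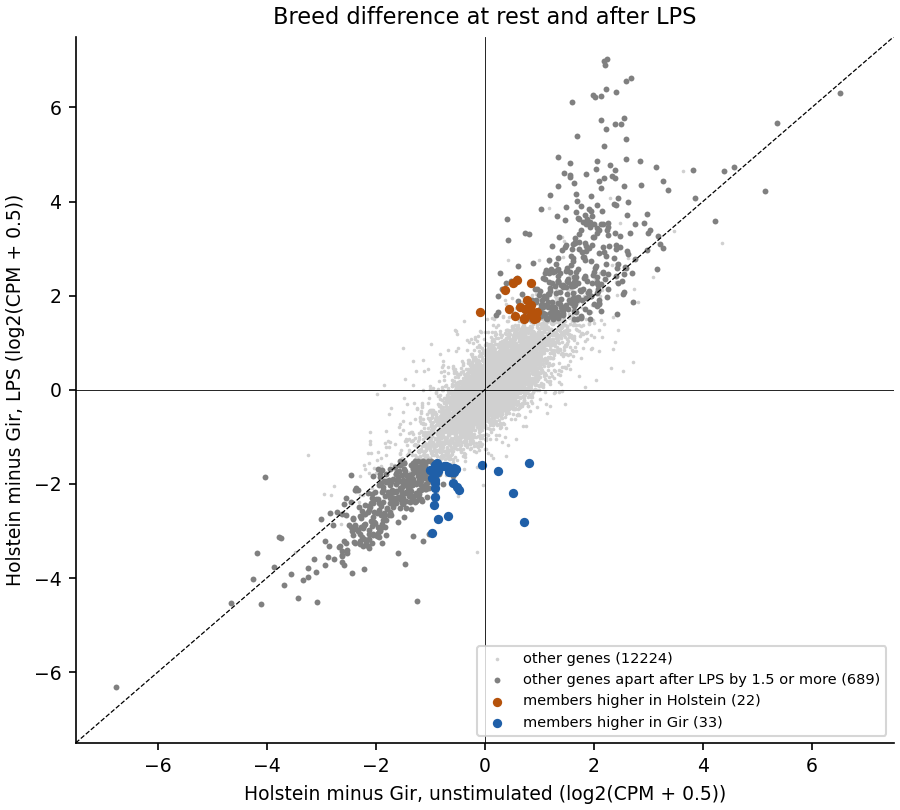
Difference between the breed means (Holstein minus Gir, log2(CPM + 0.5)) in unstimulated MDMs on the x axis and in LPS treated MDMs on the y axis, with 1 point per gene for 12968 genes and the line of equal differences dashed. The 22 genes higher in Holstein and the 33 higher in Gir sit beyond 1.5 on the y axis and within 1 of 0 on the x axis, and 50 of the 55 lie on the same side of 0 on both axes.

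The distance between the breeds grew with LPS by a median of 1.08 over the 55 genes, from 0.58 to 3.53, where the rule fixed that it had to grow by more than 0.5. Over all 12968 genes the median was 0.12. In both directions the median change was negative in the breed that was lower after LPS and positive in the other. Among the 33 genes higher in Gir, the mean change of the Holstein animals was negative in all 33, with a median of -0.75, and that of the Gir animals was positive in 29, with a median of 0.49. Among the 22 genes higher in Holstein, the Gir animals had a negative mean change in 18, with a median of -0.93, and the Holstein animals a positive one in 15, with a median of 0.21. The mean changes of the breeds had opposite signs in 40 of the 55 genes.

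These signs are relative to the total of each library. Over all genes the median change was -0.20 in Holstein and -0.16 in Gir. With libraries scaled by TMM, a factor that evens out the bulk of the genes, those medians were -0.05 and -0.01. On that scale the Holstein change of the genes higher in Gir was negative in 32 of 33 genes and the Gir change positive in 31. Among the genes higher in Holstein, the Gir change stayed negative in 18 of 22 and the Holstein change was positive in 17, and the breeds had opposite signs in 43 of the 55 genes.

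Changes of single animals were more mixed than the means. The 4 Holstein and 4 Gir changes did not overlap in 18 of the 55 genes, against 3.79% of all genes, but the rule had used these values. It was 32 genes without Holstein 3, against 9.37% of all genes, and 29 without Gir 6, against 12.4%, so the share over all genes grew by a larger factor than that of the 55. All 4 Holstein animals were lower after LPS in 14 of the 33 genes higher in Gir, and all 4 Gir animals were higher in 8 of them. Both held together in 2 of the 33 genes, and nowhere else among the 55, so every animal moved with its breed in 2 of 55 genes (0.386% of all genes). Of the genes higher in Holstein, 7 of 22 were lower after LPS in all 4 Gir animals and 5 were higher in all 4 Holstein animals. Shares of all genes were not counted for these agreements within 1 breed. Of all 12968 genes, 8737, 9689, 7380 and 9783 were lower after LPS in Holstein 1, 20, 3 and 50. In Gir 2, 5, 6 and 7, 7993, 7885, 8922 and 8485 were lower.

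The genes higher in Holstein split the Gir animals into 2 pairs. Their mean change was -1.52 in Gir 2 and -1.09 in Gir 7, but -0.04 in Gir 5 and -0.29 in Gir 6. In the Holstein animals it was 0.73 in Holstein 3 and between 0.06 and 0.25 in the other animals. The Gir animals also differed in their level at rest. With each gene centred on its mean over 16 libraries, the mean level at rest was 0.48 in Gir 2 and 0.13 in Gir 7, against -0.78 in Gir 5 and -0.82 in Gir 6. After LPS the 4 Gir animals lay between -1.12 and -0.81, a range bounded by the rule and, in many of these genes, by counts near 0. The Holstein animals lay between 0.62 and 0.97 after LPS. At rest they lay between 0.44 and 0.76, except Holstein 3 at -0.06.

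Counted by gene, Gir 2 or Gir 7 was the highest Gir animal at rest in 17 of the 22 genes, and Holstein 3 was the lowest Holstein animal in 11. Both held in 10 of the 22. Gir 2 lay above the Holstein mean at rest in 8 genes and Gir 7 in 8, but Gir 5 and Gir 6 in only 1 gene each. The same libraries stood out, by more, in the 280 genes higher in Holstein after LPS that were dropped because their rest means were 1 or more apart. There the mean level at rest was 1.89 in Gir 2 and 0.96 in Gir 7, against -2.16 in Gir 5 and -1.72 in Gir 6. In Holstein 3 it was -1.71, against 2.39 to 2.93 in the other Holstein animals. The part of these libraries in the values of the 22 genes was not tested.

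**Figure D2:**
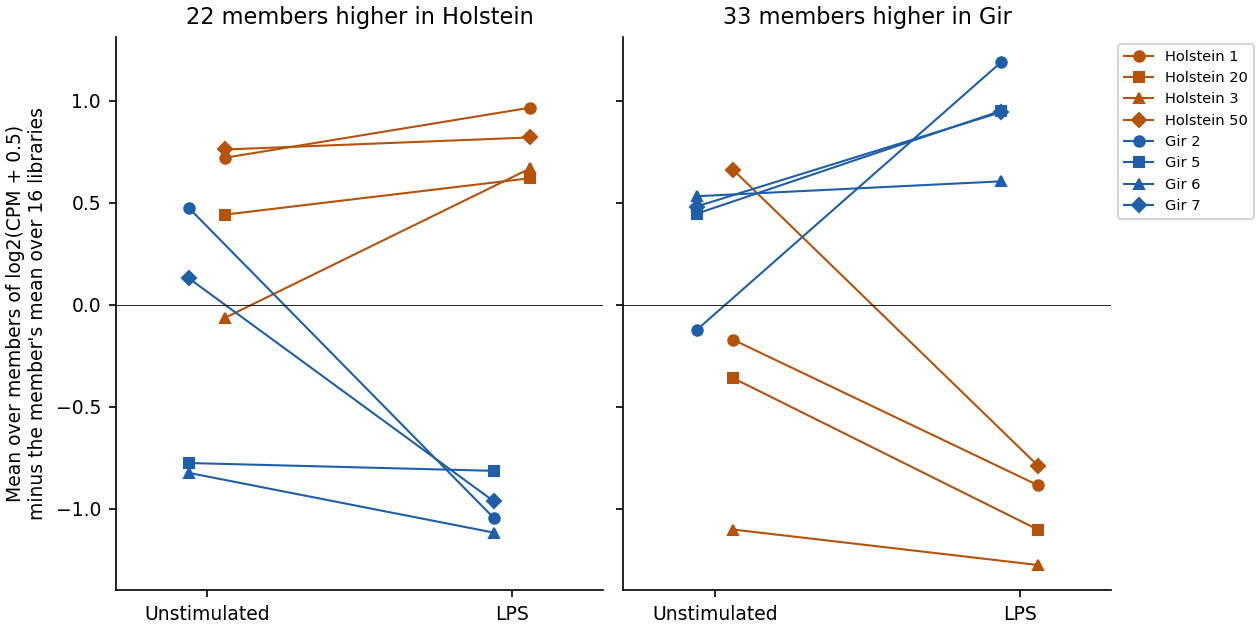
Mean level per library over the 22 genes higher in Holstein (left) and the 33 higher in Gir (right), as log2(CPM + 0.5) minus each gene's mean over 16 libraries, with a line from the unstimulated to the LPS library of each animal. At rest Gir 2 (0.48) and Gir 7 (0.13) lie above Holstein 3 (-0.06) on the left and Holstein 50 (0.66) lies above every Gir animal on the right, whereas after LPS the breeds are apart in both.

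In the 33 genes higher in Gir, the unstimulated libraries of Holstein 50, Holstein 3 and Gir 2 were most often at the extremes. Holstein 50 had the highest mean level of all animals at rest, 0.66, against -0.17 in Holstein 1, -0.36 in Holstein 20 and -1.10 in Holstein 3. Gir 2 had the lowest of the Gir animals at -0.12, with Gir 5, Gir 6 and Gir 7 between 0.45 and 0.53. Counted by gene, Holstein 50 was the highest Holstein animal at rest in 22 of the 33 genes and Holstein 3 the lowest in 24, and Gir 2 was the lowest Gir animal in 22. Holstein 50 was highest or Gir 2 lowest in 30 genes, and both held in 14. Holstein 50 lay above the Gir mean at rest in 14 genes, against 7 for Holstein 1, 3 for Holstein 20 and 3 for Holstein 3.

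After LPS the order of those libraries was different. Gir 2 had the highest mean level of any library, 1.19, and was the highest Gir animal in 18 of the 33 genes. It was lowest of its breed at rest and highest after LPS in 11 genes. Holstein 50 was at -0.79, the highest Holstein mean but within the Holstein range of -1.28 to -0.79. The mean change was thus 1.31 in Gir 2 and -1.45 in Holstein 50, whose level was lower after LPS in 33 of 33 genes. It was 0.07 in Gir 6 and -0.17 in Holstein 3, where as many as 16 of the 33 genes were higher after LPS. The same libraries were often extreme in other genes higher in Gir after LPS. In the 107 dropped for rest means 1 or more apart, Gir 2 was the lowest Gir animal at rest in 79. There Gir 2 was the highest Gir animal after LPS in 67, and Holstein 50 the highest Holstein animal at rest in 69. In the 216 genes also apart at rest, those counts were 109, 146 and 97. Of the unstimulated Gir libraries, Gir 2 also had the largest share of reads outside genes, 14.6% against 11.0% to 12.2%. The part of that share in the values of the 33 genes was not tested. Across genes, deviations of unstimulated Gir 2 correlated by 0.03 with Gir 2 after LPS and by 0.30 with Gir 6.

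**Figure D3:**
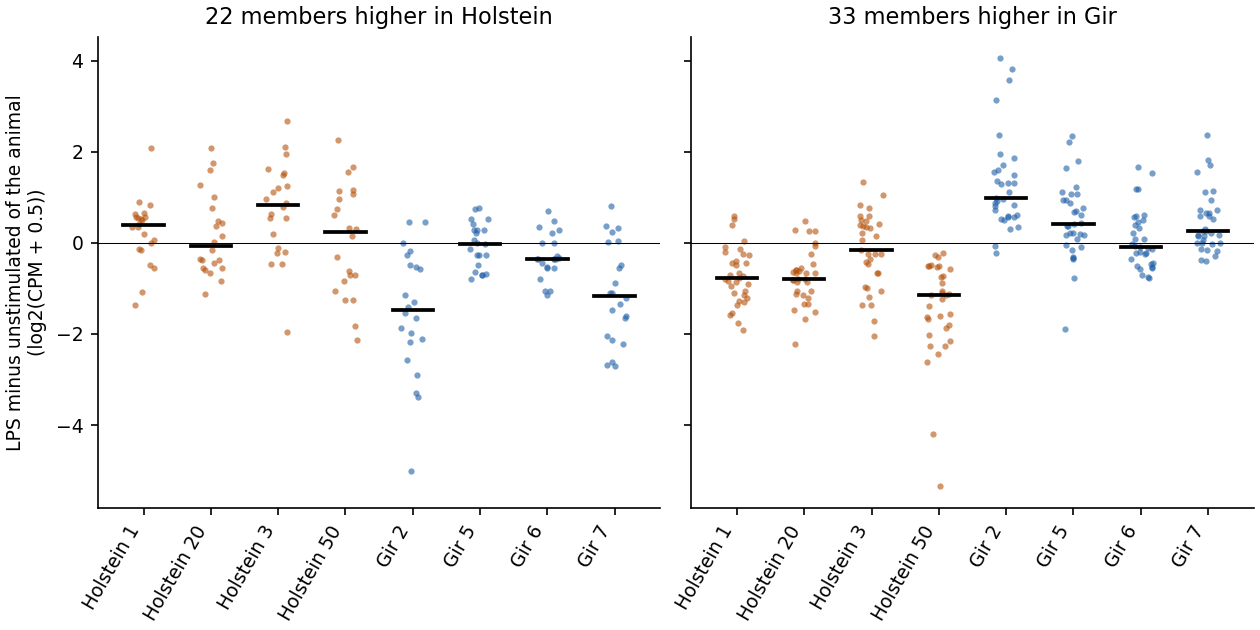
Change with LPS of each animal (LPS minus unstimulated, log2(CPM + 0.5)), with 1 point per gene for the 22 genes higher in Holstein (left) and the 33 higher in Gir (right), and the median of each animal as a black bar. On the left Gir 2 and Gir 7 have medians of -1.48 and -1.16 against -0.01 in Gir 5 and -0.35 in Gir 6, and on the right all 33 points of Holstein 50 are below 0.

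When the rest ranges were drawn again without each animal in turn, 28 of the 55 genes no longer overlapped in at least 1 case and 27 overlapped in all. Leaving out an animal separates genes in general: of the 11949 genes that overlapped at rest, 3708 were separated in at least 1 case. Leaving out Gir 2 separated 12 of the 55, against 6.75% of those genes, and leaving out Holstein 50 separated 10, against 3.16%. Holstein 20 separated 4 genes, against 9.45%, and Holstein 3 separated 2, against 8.47%. Each of the other animals separated 1 or 2, against 1.32% to 3.32%. No test was made of these counts, since the rule had used the rest values. For the 33 genes higher in Gir, 9 were separated without Holstein 50 and 9 without Gir 2. Rest means 1 or more apart were reached by 19 of the 55 genes without Gir 2 and by 19 without Holstein 50, by 14 without Holstein 20 and 12 without Holstein 3, and by 2 to 9 without each of the others. Of the 11038 genes that overlapped at rest with means less than 1 apart, between 0.634% and 3.78% did so without an animal, but 15 of the 55 lay at 0.9 or more with all animals.

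Applying the whole rule to 7 animals gave between 31 genes without Gir 2 and 97 without Gir 6. Only between 27 and 48 of the 55 genes were among them. The count was 89 without Holstein 3 and 85 without Gir 5. Without Gir 2, 27 genes were kept and 4 were new, whereas without Gir 6, 44 were kept and 53 were new.

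**Figure D4:**
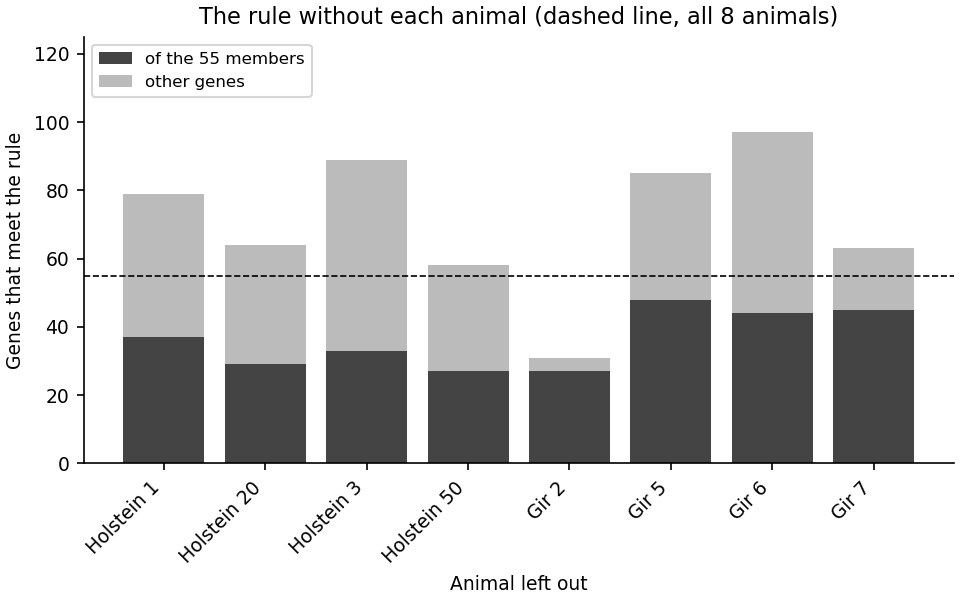
Number of genes that met the rule when both libraries of 1 animal were left out, with the genes that are among the 55 in dark grey and others in light grey. The bars run from 31 genes without Gir 2 to 97 without Gir 6, and the dark part runs from 27 to 48.

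The spread between animals was set against the error of counting. For the 22 genes higher in Holstein, the 4 Gir libraries after LPS together held a median of 13.5 counts per gene, from 1 to 1326. The SD between Gir animals after LPS had a median of 0.32, close to the 0.315 that counting error alone would give at those counts, and in 9 of the 22 genes counting error was as large as the SD or larger. At rest the same genes held a median of 66 counts in Gir, and the SD was 0.80 against 0.284 from counting. In many of these genes the Gir values after LPS thus lay near a count of 0. Across the 55 genes, 7 had a group with 3 counts or fewer over its 4 libraries, and for these the log2 difference depends on the constant of 0.5 added to CPM.

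The 33 genes higher in Gir had more counts, with a median of 416 over the 4 Gir libraries after LPS and 103 over the 4 Holstein libraries. Here the SD between animals was 0.45 in Gir and 0.52 in Holstein after LPS, against 0.136 and 0.222 from counting. At rest the Holstein SD had a median of 0.95, and the Gir SD one of 0.42. Over all genes those rest medians were 0.40 and 0.31. With 2 in place of 0.5 added to CPM, 12 of the 55 genes met the rule, and the other 43 fell under the limit of 1.5 after LPS.

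The edgeR quasi-likelihood test called genes at a Benjamini-Hochberg FDR under 0.05 and a log2 fold change of at least 1. In LPS treated MDMs, 48 of the 55 genes passed the limit on CPM and 44 were called between the breeds, against 7.35% of all genes tested, a count that the choice of the genes on these values fixes in large part. The 7 genes not tested were all higher in Holstein. Among the genes higher in Holstein, 14 of the 15 tested were called, where 3.26% of all genes were called in that direction. Among those higher in Gir, 30 of 33 were called, where 4.09% were. In unstimulated MDMs, 49 genes passed the limit and none was called, against 0.318% of all genes. An unadjusted p under 0.05 was found in 10 of the 49, against 11.7% of all genes. The Wald test of DESeq2 also called 0 of the 55 at rest, against 2.27% of all genes, with an unadjusted p under 0.05 in 13 of the 51 that had one, against 10.2%.

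A call after LPS and none at rest do not show that the breed difference changed. That difference in the change with LPS was tested over all 16 libraries, and edgeR called 0 of the 55 genes, as it called 0% of the 12968. Unadjusted p was under 0.05 in 26 of the 55, against 1.92% of all genes, where the rule had required the distance between the breeds to grow. With the animal as a replicate block the count of calls was again 0, with 35 at an unadjusted p under 0.05, against 8.28% of all genes, and a lowest adjusted p of 0.178 from edgeR. DESeq2 called 0 without the block, against 0.01% of the genes with an adjusted p. With the block it gave an adjusted p to only 2 of the 55 and to 1391 genes in all, called neither of the 2, and called 0.935% of the 1391. Its unadjusted p was under 0.05 in 28 of 53 genes without the block, against 1.90% of all genes, and in 31 of 55 with it, against 3.75%. For LPS against rest over both breeds, which the rule had limited, edgeR called 0 of 55 genes, against 1.67% of all, with 11 at an unadjusted p under 0.05, against 18.8%. It called 2 with the block, against 6.99%. DESeq2 called 2, against 5.14%, and with the block 1, against 5.45%. The rule limits the mean change of log2(CPM + 0.5), whereas a call used the fold change fitted by edgeR. For the 4 genes printed below, in their order, that fold change was -1.41, -1.21, 0.73 and -1.16. The rule thus did not bar a fitted fold change of 1 or more. Without the block, edgeR had 0 of the 55 at an FDR under 0.05 alone, against 343 of 12968 genes. At an FDR under 0.05 alone and with the block, edgeR had 9 of the 55, against 17.3% of all genes, and DESeq2 had 9, against 15.7%.

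The 2 identifiers with the largest difference after LPS in each direction show what these patterns looked like in single libraries. Their rank is that on log2(CPM + 0.5). The 2 higher in Holstein held 4 and 7 counts over the Gir libraries after LPS, so their rank depends on the 0.5 added. ENSBTAG00000012834, higher in Holstein, had after LPS a CPM of 2.95 in Holstein 1, 3.40 in Holstein 20, 1.03 in Holstein 3 and 3.69 in Holstein 50. In Gir it had 0.111 in Gir 2, 0.224 in Gir 5, 0 in Gir 6 and 0.124 in Gir 7, from 4 counts in all. Every Holstein animal was thus above every Gir animal after LPS. At rest it had 2.51, 2.28, 0 and 2.88 CPM in Holstein 1, 20, 3 and 50, and 5.91, 0, 0.136 and 0.846 CPM in Gir 2, 5, 6 and 7. The highest library at rest was that of Gir 2, and Holstein 3 and Gir 5 had no count, which allows up to 0.369 and 0.374 CPM. The breed means on the log2 scale were 1.61 ± 0.67 and -0.71 ± 0.22 (SD, n = 4) after LPS and 0.96 ± 1.31 and 0.36 ± 1.66 (SD, n = 4) at rest, in Holstein and Gir.

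ENSBTAG00000005359, also higher in Holstein, had after LPS 8.35 CPM in Holstein 1, 1.41 in Holstein 20, 0.904 in Holstein 3 and 5.15 in Holstein 50, against 0.111, 0.112, 0.399 and 0.248 in Gir 2, 5, 6 and 7. The ranges were apart, but only 3 of the 8 libraries reached a CPM of 1, so the gene was not among those tested for the breeds after LPS. At rest it had 14, 20, 0 and 73 counts in Holstein 1, 20, 3 and 50, of which that of Holstein 50 was 8.76 CPM. The Gir values were 3.16, 0, 0.272 and 4.11 CPM in Gir 2, 5, 6 and 7. Gir 2 and Gir 7 were the high Gir libraries at rest, as they were over the 22 genes, and both were among the low libraries after LPS. The log2 difference between the breed means was 2.26 after LPS and 0.51 at rest.

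ENSBTAG00000037811, higher in Gir, was an abundant transcript with 3980 CPM in Gir 2, 1800.1 in Gir 5, 2548 in Gir 6 and 2437 in Gir 7 after LPS. In the Holstein animals 1, 20, 3 and 50 it had 583, 436, 128 and 289 CPM. All Gir animals were above all Holstein animals after LPS. At rest it had 280 CPM in Gir 2, 859 in Gir 5, 1655 in Gir 6 and 740.4 in Gir 7, against 794, 599, 99.6 and 414 in Holstein 1, 20, 3 and 50. The rest ranges overlapped, and Gir 2 lay below 3 of the 4 Holstein animals and Gir 7 below Holstein 1. The change was 3.83 in Gir 2, between 0.62 and 1.72 in the other Gir animals, and between -0.52 and 0.36 in the Holstein animals. The log2 difference Holstein minus Gir was -3.05 after LPS and -0.98 at rest.

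ENSBTAG00000026275, higher in Gir after LPS, had at rest 122.5 CPM in Holstein 50, against 0.570 in Holstein 1, 1.48 in Holstein 20 and 3.94 in Holstein 3, and 2.14, 4.11, 1.77 and 5.20 in Gir 2, 5, 6 and 7. After LPS it had 2.53 CPM in Holstein 50, with 0.128, 0.352 and 2.71 in Holstein 1, 20 and 3, and 6.88, 22.9, 6.11 and 10.4 in Gir 2, 5, 6 and 7. No other library came near the level of Holstein 50 at rest, and after LPS that animal lay within the range of the other Holstein animals. All 4 Holstein animals were lower after LPS, with changes between -5.35 and -0.47, and all 4 Gir animals were higher, with changes between 0.94 and 2.35. At rest the Holstein animals averaged 2.54 ± 3.05 on the log2 scale, and the Gir animals 1.82 ± 0.64 (SD, n = 4). The difference Holstein minus Gir was thus 0.72 at rest and -2.81 after LPS. The order at rest rested on Holstein 50 alone, and without that animal the rest difference was -0.74, in the direction seen after LPS.

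**Figure D5:**
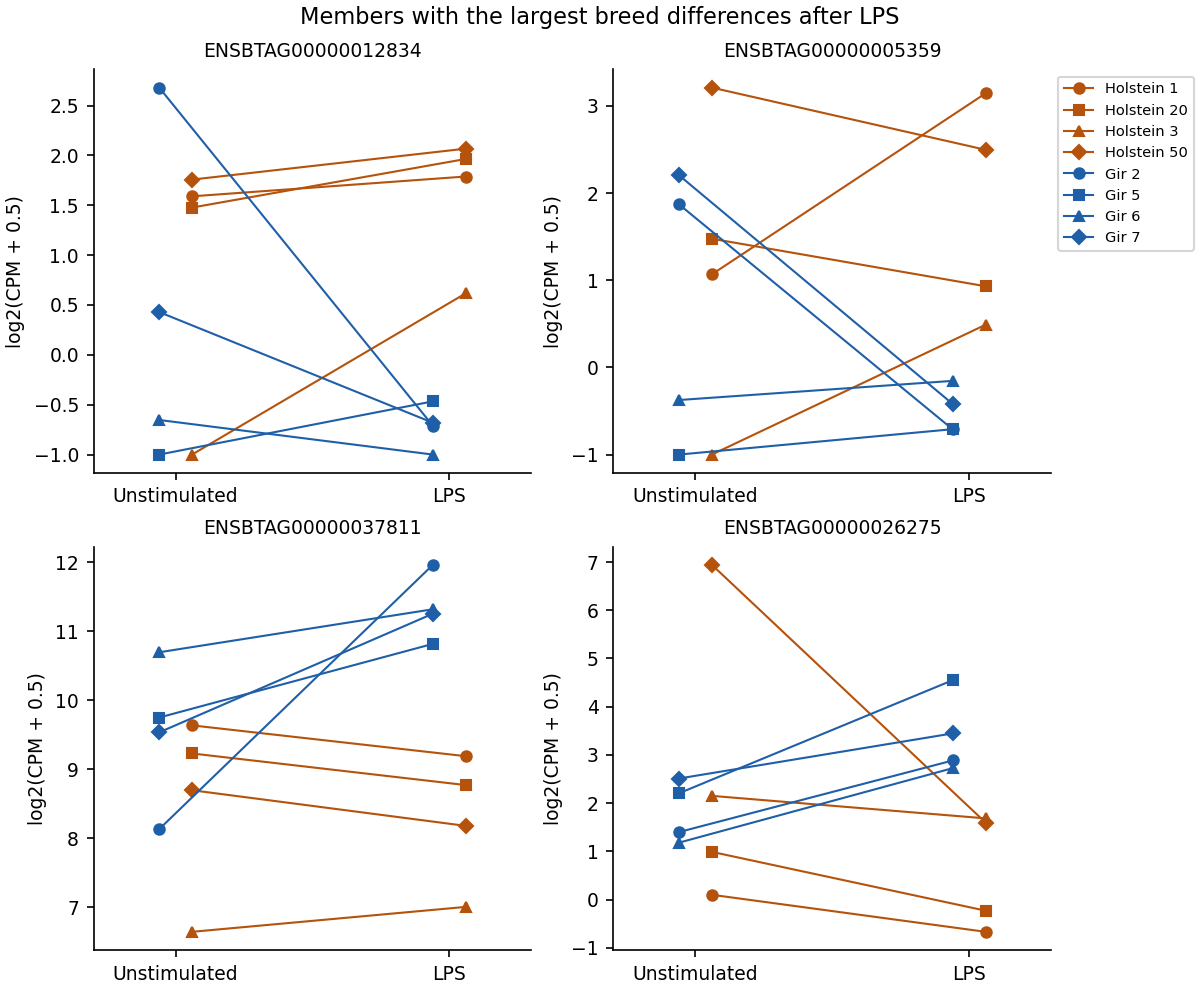
Values of 4 genes as log2(CPM + 0.5) in each library, with a line from the unstimulated to the LPS library of each animal and the breeds in 2 colours. The top genes are higher in Holstein after LPS and the bottom genes higher in Gir, and at rest Gir 2 is the highest library at top left and the lowest Gir library at bottom left, Gir 2 and Gir 7 lie above Holstein 1, 20 and 3 at top right, and Holstein 50 is the highest at bottom right.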

How the data were processed

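For each of the 16 libraries, raw counts by gene were deposited, which the authors had made from stranded, paired-end mRNA reads of 100 bp with STAR 2.6.0c and HTSeq 0.10.0, as the methods and the submitters' processing notes give. The methods name the genome ARS-UCD1.2 and the notes UMD3.1, and the strand setting of the counting is not given in the sources used here. Each file lists 27607 Ensembl identifiers, which matched 0 of the 37063 genes of the reference table, and 5 counters. Counters were kept out of library sizes and held between 18.4% and 23.2% of the reads in a file, with the counter of low quality added once because it equals that of several places.

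CPM were computed from the sum of genes, with Python 3.11.15 and pandas 2.3.3. Counts were fitted with edgeR 4.0.16 (glmQLFit and glmQLFTest, TMM) and DESeq2 1.42.0 in R 4.3.3. Breed contrasts used their 8 libraries and genes with a CPM of at least 1 in at least 4, or at least 3 without an animal. The difference in the change used 4 groups over 16 libraries. Scripts were tested on simulated data. The titles number the animal, which pairs the libraries: deviations of the same animal correlated by 0.03 to 0.84 across genes, and 7 of 8 animals correlated best with themselves. The exception was unstimulated Gir 2, which correlated by 0.03 with itself after LPS and by 0.30 with Gir 6. The other Gir animals correlated with themselves by 0.20 to 0.35 and the Holstein animals by 0.66 to 0.84. Genes printed are the 2 with the largest breed difference after LPS in each direction, since the wider rule for named genes and the marker and pathway lists need symbols and were not applied. The genes and lists were chosen with earlier results of these data known. Limits at a count of 0 are 3 counts and cover counting error only. The SD expected from counting is that of Poisson counts at the mean CPM of the group.

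Alternatives were another constant added to CPM, other library scalings, filters and tests, the animal as a replicate block, and leaving out each animal.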

Additional observations from a re-analysis of the deposited data

Results flagged for a closer look

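With 4 animals per breed and stimulus, the farthest library stood apart by a large share of the whole range in 2 of 24 groups examined. Chance gives about 1 in 20 groups where values were not selected, but that rate does not apply here, since the genes were chosen on these values. Whether the rule favours genes with an extreme unstimulated library was not tested. ENSBTAG00000012834 had no count in unstimulated Holstein 3, and its gap to the nearest Holstein animal was 0.898 of the Holstein range. Over the 33 genes higher in Gir, the mean level of unstimulated Gir 2 lay below the other Gir animals by 0.869 of the Gir range.

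Among the 4 genes printed and the means of both directions, every animal of a breed changed with LPS in the opposite way to every animal of the other breed in 1 gene and in both means. Of the 55 genes, 2 did so in all. The difference was Holstein minus Gir -3.53 for ENSBTAG00000026275, 1.04 for the mean over the 22 genes higher in Holstein and -1.36 for the mean over the 33 genes higher in Gir. The rule that chose the genes bounds the means, so neither was tested, and for the single gene edgeR gave an adjusted p of 0.999986 for the difference in change.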

How the results depend on the processing

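The rule gave 34 genes with 2 added to CPM (12 of the 55), and between 31 and 97 without each animal (27 to 48 of the 55), with 31 without Gir 2, 85 without Gir 5, 97 without Gir 6 and 89 without Holstein 3. TMM, DESeq2 size factors and other filters kept between 48 and 55 of the 55. TMM gave 62 genes in all, 14 of them new, and DESeq2 size factors gave 62, with 13 new. For LPS against rest, where edgeR called 0 of 55 genes, DESeq2 called 2, the replicate block 2, the replicate block with DESeq2 1, and the replicate block without each animal between 0 and 7 (7 without Holstein 3, where 8.38% of all genes were called). The last 2 were chosen after seeing the data, and the cause was not tested. Non-overlapping changes held in 18 genes (491 of all), and in 18 to 32 without each animal (29 without Gir 6, 32 without Holstein 3), with 695 to 1613 of all genes. Calls after LPS stayed between 35 and 55, with 712 to 1412 over all genes, both highest with DESeq2. Calls at rest stayed at 0 under every alternative run, none of which had the replicate block, and calls for the difference in change stayed at 0 with and without it. With 4 animals per breed and few counts in much of the group, differences near the limits were not resolved.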
